A study of Mus musculus with 9 samples.

Results

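Gr-1+ cells of the spleen taken on day 7 after an allogeneic bone marrow transplant into wild-type (WT) hosts were compared with Gr-1+ cells from syngeneic transplants without graft-versus-host disease (GVHD). The comparison was defined by the labels: it uses the 3 arrays titled WT and the 3 titled syngeneic non-GVHD, 6 of the 9 arrays of the series, and each of these 6 entered it. The labels give the strain C57BL/6 (B6) for both groups. The other 3 arrays, of cells from IDO knockout hosts (B6.129-Ido1tm1Alm/J), lay on a separate chip and served here only to estimate the spread between arrays. All cells were mouse cells purified with magnetic beads for Gr-1 (Ly6G), the labels require a purity above 97%, and RNA was hybridised to Illumina bead arrays, which measure each transcript by the brightness of probes on beads. The strain of the transplant donors is not given in the sources used here, so the allogeneic reaction and a difference of strain, also in how a probe matches a polymorphic gene, cannot be told apart. Whether each array had its own animal is not stated, and p-values here stand for array-to-array spread alone, possibly technical.

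Gr-1 antibodies mark neutrophils and, more weakly, some monocytes. In GVHD, donor T cells respond to host tissue and release interferon-gamma, among other cytokines. Interferon-gamma binds its receptor on myeloid cells, the kinases JAK1 and JAK2 pass the signal on, and genes for chemokines, immunity-related GTPases and the antigen presentation machinery are switched on. Red pulp macrophages, which also live in the spleen, clear aged red blood cells and recycle their iron, and depend on the transcription factor Spic.

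Of 10871 genes tested, 1141 (10.5%) changed between WT and syngeneic cells by limma with a Benjamini-Hochberg adjusted p under 0.05, 525 higher (4.83%) and 616 lower (5.67%) in WT cells. These genes are called below, and "rose" and "fell" mean called. By at least 1 on the log2 scale, 271 genes fell (2.49%) and 61 rose (0.561%). The median log2 fold change over all genes was 0.04. In 4191 genes (38.6%) the 3 WT and 3 syngeneic arrays did not overlap, 2384 with WT above (21.9%) and 1807 with WT below (16.6%).

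WT replicate 2 stood apart from the other arrays. Its log2 values correlated with those of WT replicates 1 and 3 at r = 0.919 and 0.919 over genes, against 0.998 between replicates 1 and 3 and 0.998 among the syngeneic arrays. Over the 6 arrays, the first principal component (65.2% of variance) set it against the rest, and the second (31.6%) set WT replicates 1 and 3 against the syngeneic arrays. Left out, 3215 genes (29.6%) were called, 1588 higher (14.6%) and 1627 lower (15%), among them all 1141 in the same direction. Past 1 on the log2 scale, 81 then rose (0.745%) and 402 fell (3.7%). Dropping syngeneic replicate 1, 2 or 3 left 520, 518 or 487 calls, and dropping WT replicate 1 or 3 left 846 or 889. Counts for gene lists are therefore given below also without WT replicate 2. They stand beside shares over all genes of 4.83% higher and 5.67% lower, or 14.6% and 15% without that array. No list was tested against these shares.

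The label was checked against marker genes. S100a8 and S100a9, calcium-binding proteins that neutrophils hold in large amounts, gave signals of 23175 to 27264 and 7219 to 21294 over the 6 arrays. Mpo, the myeloperoxidase of primary granules, gave 26521 to 31053. Ly6g itself was not matched to a probe here. Other neutrophil markers were not bright throughout. On their lowest WT array Retnlg, Cxcr2, Itgam and Csf3r gave 295, 32.8, 52.8 and 13.2, the last below the background limit of 14.3. Their lowest syngeneic signals were 28712, 1325, 628 and 570. For Retnlg and Cxcr2 the lowest array was WT replicate 2. Itgam and Csf3r reached 587 and 468 on their highest WT array. WT replicate 2 lay below the average of the other WT arrays in 18 of 19 mature neutrophil genes tested. Genes of other cell types were bright on some arrays as well. The B cell gene Cd79b reached 1514 and the T cell gene Cd3d 10184, both on WT replicate 2. The red cell gene Slc4a1 reached 19773 and the macrophage gene Vcam1 17537, both on syngeneic arrays. A signal in such a pool does not tell fewer cells of a type from less RNA per cell.

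Interferon-gamma targets were higher in WT cells. Of 27 genes listed, 25 were on the array and 21 passed the filter on dim probes. Of the 21, 16 rose and 0 fell, with a median of 1.15 on the log2 scale (0.04 over all genes). Without WT replicate 2, 18 rose and 0 fell, with a median of 1.08. The summed signal of the 21 genes was 31917 to 32978 on the syngeneic arrays and 82312, 66219 and 83446 on WT arrays 1, 2 and 3. Without WT replicate 1 or 3, or any 1 syngeneic array, 12 of 21 rose.

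Among the chemokines of this list, Cxcl9, which draws activated T cells through CXCR3, gave signals of 808, 889 and 833 in syngeneic cells and 7732, 2532 and 7658 in WT cells. All WT arrays lay above all syngeneic arrays, and WT replicate 2 was the lowest of the 3. Cxcl9 rose by 3.09 without that array (adjusted p = 1.05e-09), against 2.57 ± 0.38 with it (limma log2 fold change with its SE, n = 3 per group). Cxcl10, which binds the same receptor, gave 311, 324 and 356 in syngeneic and 2499, 600 and 2581 in WT cells, again without overlap and with WT replicate 2 lowest. Its rise of 2.06 ± 0.52 (2.72 without WT replicate 2) lost its call without any 1 of the 8 other arrays of the fit (adjusted p = 0.0517 to 0.135), while a second, dimmer probe differed by 0.23.

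The GTPases of this list act in defence against microbes inside cells. Gbp2, a guanylate-binding protein, gave 4171, 4390 and 4417 in syngeneic and 17086, 14750 and 19088 in WT cells. It rose by 1.95 ± 0.10 (limma adjusted p = 1.62e-05), and the lowest WT array was far above the highest syngeneic one. Gbp2b, its close relative, gave 6.52, 6.22 and 9.10 in syngeneic cells, below the background limit of 14.3 on each array, and 250, 135 and 223 in WT cells. It rose at least 3.27-fold (limma adjusted p = 0.000195). The Gbp2b probe stayed below the limit on the syngeneic arrays, where Gbp2 gave 4171 to 4417. Whether the 2 probes share transcripts in WT cells was not tested. Gbp3 rose by 1.15 ± 0.12, Gbp5 by 1.39 ± 0.15 and Gbp7 by 1.43 ± 0.14.

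The immunity-related GTPases moved with them. Igtp, or Irgm3, which rose by 1.96 ± 0.17, gave 2519, 2547 and 2663 in syngeneic and 8844, 13601 and 8886 in WT cells, and here WT replicate 2 was the highest array. Ifi47, or Irg47, gave 157, 115 and 125 in syngeneic and 470, 458 and 511 in WT cells, with the 3 WT arrays close together. Irgm1 rose by 1.03 ± 0.14, Irgm2 by 0.76 ± 0.10 and Tgtp1 by 1.26 ± 0.17.

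Of the regulators, Ciita, the master activator of MHC class II genes, gave 274, 275 and 311 in syngeneic and 667, 588 and 725 in WT cells without overlap. It rose by 1.04 ± 0.10 (limma adjusted p = 0.00032), and its second probe differed by 1.00 in the same direction. Batf2, a transcription factor induced by interferon-gamma, gave 91.9, 115 and 115 in syngeneic and 856, 216 and 798 in WT cells. Its rise of 1.81 ± 0.40 was 2.36 without WT replicate 2, and the call ended without each of 5 other arrays (adjusted p = 0.0661 to 0.0993). The 5 members not called were Ido1, Cd274, Nos2, Ifi30 and Icam1. Ido1, which starts tryptophan breakdown, differed by 0.31 ± 0.10 (adjusted p = 0.0796), with syngeneic signals below the limit on 3 of 3 arrays. Cd274, the checkpoint ligand PD-L1, gave 897, 919 and 1003 in syngeneic and 1508, 879 and 1698 in WT cells, overlapping through WT replicate 2; without it Cd274 was called (0.73, adjusted p = 0.000652). Nos2, the inducible nitric oxide synthase, differed by -0.10 ± 0.15.

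Promoters of the 4 called targets with the largest rise that have an entry in RefSeq's promoter sequences (build GRCm38.p6) are shown because interferon response elements lie in such regions. Each runs 5′ to 3′ on the gene's own strand, from 250 bases before the start site to 50 after it. Capitals mark matches to the gamma-activated element TTCNNNGAA, which reads the same on both strands, or to a core of the interferon-stimulated response element, GAAA followed by any 2 bases and GAAA again. The core was searched on both strands, and on the other strand it reads TTTC, 2 bases and TTTC. The promoters lie at chr5:92328030-92328329 (minus strand) for Cxcl9, chr5:92348840-92349139 (minus) for Cxcl10, chr11:58199306-58199605 (plus) for Igtp and chr3:142620413-142620712 (plus) for Gbp2.
Cxcl9: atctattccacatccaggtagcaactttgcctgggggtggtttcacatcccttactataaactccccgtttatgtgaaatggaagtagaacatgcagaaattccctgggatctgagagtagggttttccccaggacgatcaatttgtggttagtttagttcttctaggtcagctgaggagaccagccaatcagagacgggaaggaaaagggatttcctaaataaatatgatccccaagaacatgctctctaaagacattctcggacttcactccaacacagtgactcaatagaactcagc
Cxcl10: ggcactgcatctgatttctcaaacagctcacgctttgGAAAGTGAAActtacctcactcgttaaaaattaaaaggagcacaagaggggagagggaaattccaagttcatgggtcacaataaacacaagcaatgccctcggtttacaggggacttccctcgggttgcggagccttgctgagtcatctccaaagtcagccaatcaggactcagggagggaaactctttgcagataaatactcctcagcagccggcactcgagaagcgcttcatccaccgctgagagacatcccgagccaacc
Igtp: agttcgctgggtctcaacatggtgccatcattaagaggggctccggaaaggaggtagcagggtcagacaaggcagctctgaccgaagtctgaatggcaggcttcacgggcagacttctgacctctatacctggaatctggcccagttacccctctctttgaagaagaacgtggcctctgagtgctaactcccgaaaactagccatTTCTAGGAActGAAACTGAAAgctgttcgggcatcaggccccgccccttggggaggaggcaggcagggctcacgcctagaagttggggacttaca
Gbp2: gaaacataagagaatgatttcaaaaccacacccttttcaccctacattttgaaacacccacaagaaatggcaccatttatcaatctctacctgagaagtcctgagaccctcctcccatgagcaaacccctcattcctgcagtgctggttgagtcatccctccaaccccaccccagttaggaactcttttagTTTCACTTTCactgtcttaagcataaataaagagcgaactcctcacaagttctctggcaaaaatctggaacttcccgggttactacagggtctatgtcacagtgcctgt

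Cxcl10, Igtp and Gbp2 each held 1 match to the GAAA core, 213, 34 and 59 bases before the start site, in Gbp2 on the other strand. Igtp also held 1 match to TTCNNNGAA, 45 bases before it. No match was found in the Cxcl9 window, which says only that these letters are not in it. Of all 32851 promoters in that source, 8.3% held TTCNNNGAA, 3.44% held the GAAA core and 11.3% held either. Of 17 tested interferon-gamma targets with an entry, 7 held the first, 11 the second and 13 either. For 8857 tested genes with an entry, the share with either was 12.1%. A match describes the sequence and does not show binding.

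Genes of interferon reception and signal transduction, upstream of these targets, changed in both directions. Of 16 tested, Irf1, Socs1 and Jak2 rose, Jak1 fell, and the median was -0.01 (5 rose and 2 fell without WT replicate 2, and 0 rose and 1 fell without WT replicate 1 or 3 or any 1 syngeneic array). The call of Jak2, at 0.39 ± 0.10, ended without 7 arrays, each left out in turn (adjusted p = 0.0576 to 0.145). The second passing probe of Jak2 differed by 0.11. Irf1, an interferon-induced transcription factor, gave 7054, 6821 and 6884 in syngeneic and 12987, 9756 and 12504 in WT cells. Socs1, the feedback inhibitor of the receptor's kinases, gave 12.9, 14.9 and 13.9 in syngeneic and 78.7, 36.1 and 87.5 in WT cells, so its syngeneic level lay at the background limit. Neither gene's arrays overlapped, although both calls ended without any 1 of the syngeneic arrays or without WT replicate 1 or 3 (adjusted p = 0.051 to 0.0711 for Irf1 and 0.0557 to 0.084 for Socs1). Jak1 fell by 1.10 ± 0.09, from 235, 220 and 249 to 76.4, 77.1 and 68.1, and its second passing probe differed by -0.42. Ifngr1 and Ifngr2, the receptor's chains, differed by -0.28 ± 0.11 and -0.69 ± 0.37 and were not called.

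Genes of the type I interferon response, an antiviral programme, share some regulators with these targets. Of 20 genes tested 1 rose, Oasl1, and 1 fell, Rsad2, with a median of 0.13. In 20 of 20 the value on WT replicate 2 was under the average of the other WT arrays, and without it 13 rose and 1 fell, with a median of 0.41. Rsad2, the antiviral protein viperin, gave 7337, 7513 and 6924 in syngeneic and 2602, 1376 and 2593 in WT cells. It fell by 1.75 ± 0.23 (limma adjusted p = 0.00224), or 1.46 without WT replicate 2, with no overlap. Isg15, a ubiquitin-like protein, gave 3211, 3551 and 3237 in syngeneic and 4283, 3011 and 4003 in WT cells, which overlap. The call of Oasl1 (0.51 ± 0.13) ended without 6 arrays, each left out in turn (adjusted p = 0.0781 to 0.15).

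Genes of MHC class I presentation, by which cells show peptides of their own proteins to CD8 T cells, were higher in WT cells as well. Of 21 tested, 16 rose and 0 fell, with a median of 0.94; without WT replicate 2, 18 rose and 0 fell, with a median of 1.03. The summed signal was 105108 to 108179 on syngeneic and 160385, 152418 and 159576 on WT arrays. WT replicate 2 differed from replicates 1 and 3 by a median of -0.05.

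Several genes that supply peptides to class I molecules rose. Psmb8, Psmb9 and Psmb10, the catalytic subunits of the immunoproteasome, rose by 0.89 ± 0.08, 1.02 ± 0.09 and 1.13 ± 0.08. Psmb9 gave 2474, 2666 and 2890 in syngeneic and 5706, 5370 and 5352 in WT cells. The peptide transporter subunit Tap1 gave 698, 720 and 785 in syngeneic and 1929, 2141 and 1954 in WT cells, and Tap2 rose by 0.81 ± 0.11. For Tap1 the gap between the groups exceeded the range within either. Tapbp and Tapbpl, which load peptide, rose by 0.94 ± 0.12 and 1.29 ± 0.11. Nlrc5, the activator of class I genes, rose by 1.36 ± 0.17 (limma adjusted p = 0.00175).

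The heavy chains differed in size of change. H2-Q6 gave 334, 311 and 352 in syngeneic and 1906, 2146 and 1806 in WT cells, and rose by 2.34 ± 0.09 (limma adjusted p = 3.51e-06). H2-Q7 rose by 1.93 ± 0.08 and H2-Q8 by 2.39 ± 0.10. These Qa genes are near-identical copies that probes may not tell apart, and class I genes are polymorphic between strains. H2-K1 rose by 1.13 ± 0.12, from 269 to 367 in syngeneic to 710 to 846 in WT cells. H2-D1, at 21777 to 23175 in syngeneic and 25531 to 29334 in WT cells, differed by 0.28 ± 0.08 and was not called (adjusted p = 0.06). B2m, the invariant light chain, differed by -0.02 ± 0.08, with overlapping arrays.

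**Figure D1:**
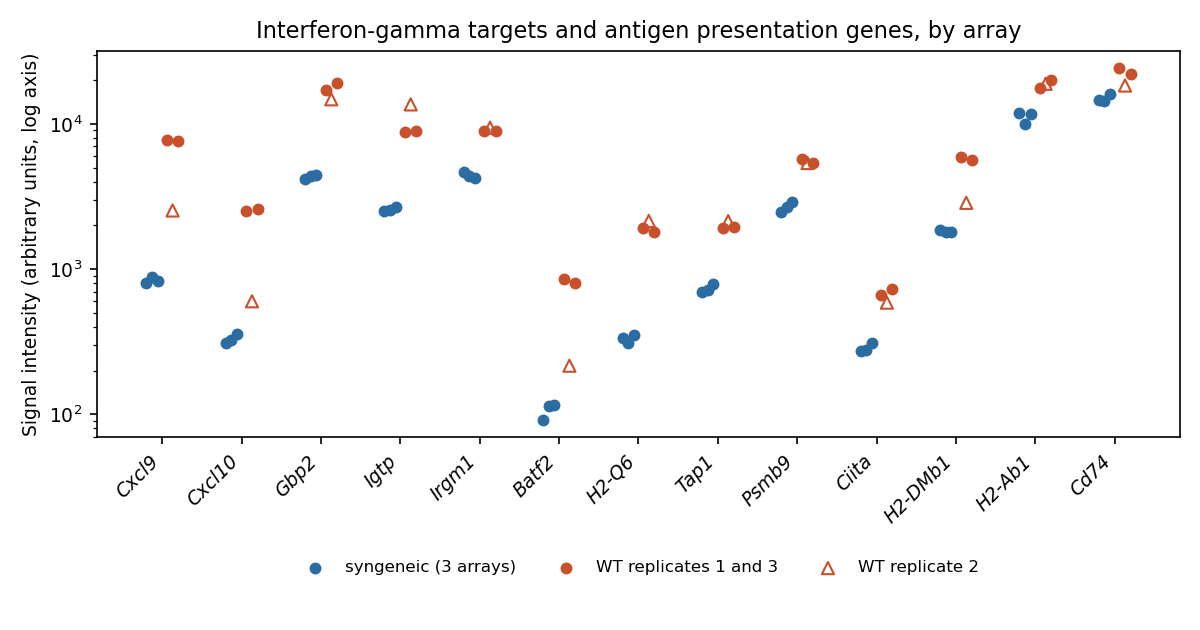
Signal intensity (log axis, arbitrary units) of 13 interferon-gamma targets and antigen presentation genes on each of the 3 syngeneic arrays (blue), WT replicates 1 and 3 (filled red) and WT replicate 2 (open triangles). Each gene's 3 WT values lie above its 3 syngeneic values, and WT replicate 2 is closest to the syngeneic arrays for Cxcl9, Cxcl10 and Batf2.

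In MHC class II presentation, which shows peptides from outside the cell to CD4 T cells, 9 of 15 genes rose and 1 fell, with a median of 0.72. Without WT replicate 2, 10 rose and 2 fell (median 0.78), and without any 1 syngeneic array 4 rose and 1 fell. H2-Ab1, a class II beta chain, gave 11783, 9925 and 11613 in syngeneic and 17700, 18863 and 20025 in WT cells. H2-Eb1 gave 5443, 4739 and 5722 in syngeneic and 10042, 11464 and 9778 in WT cells. In both genes the arrays were apart and WT replicate 2 lay with or above the other WT arrays. H2-Aa rose by 1.10 ± 0.22, and H2-Ea, whose gene is broken in B6 mice, was below the background limit on all 6 arrays. H2-DMa, H2-DMb1 and H2-DMb2, which exchange peptides on class II molecules, rose by 0.65 ± 0.14, 1.30 ± 0.25 and 1.22 ± 0.18. Cd74, the invariant chain, rose by 0.50 ± 0.11 (limma adjusted p = 0.024).

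The costimulatory ligands, which this list also holds, did not share one direction. Cd86 gave 5166, 4722 and 4828 in syngeneic and 994, 658 and 1073 in WT cells. It fell by 2.38 ± 0.19 (limma adjusted p = 0.000158), and by 2.18 without WT replicate 2. Cd40 gave 366, 383 and 326 in syngeneic and 874, 480 and 860 in WT cells, with no overlap, and rose by 0.88 ± 0.21 (adjusted p = 0.0382). Cd80 differed by 0.29 ± 0.12 and was not called. The macrophage genes described next were lower on the same arrays, and their part in these values was not tested.

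Genes of red pulp macrophages and of iron handling were lower in WT cells, with the lowest median of the 40 lists examined. Of 19 tested, 14 fell and 0 rose, with a median of -3.08 on the log2 scale; without WT replicate 2, 18 fell, with a median of -2.54. The summed signal was 227664 to 228328 on the syngeneic arrays and 71331, 61042 and 73077 on WT arrays 1, 2 and 3, which is 0.313, 0.268 and 0.321 of the syngeneic mean. In 18 of 19 genes the WT arrays all lay below the syngeneic arrays, against 16.6% of all genes. The count was 14 without each syngeneic array and 15 without WT replicate 1 or 3.

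Vcam1, an adhesion molecule of these macrophages, gave 17537, 17118 and 17369 in syngeneic and 1704, 939 and 1739 in WT cells, with no overlap and WT replicate 2 lowest. It fell by 3.56 ± 0.22 (limma adjusted p = 3.27e-05), and its 2 other passing probes differed by -0.76 and -1.80. Spic gave 9450, 9360 and 9580 in syngeneic and 613, 190 and 573 in WT cells, also apart. The uptake receptors for dying cells Axl and Mertk fell, with log2 fold changes of -3.27 ± 0.25 and -2.99 ± 0.21. Axl gave 14276, 14977 and 15677 in syngeneic and 1860, 932 and 1919 in WT cells. The scavenger receptor Cd163, which takes up haemoglobin, gave 220, 267 and 298 in syngeneic cells and exceeded the limit on 1 of 3 WT arrays. Mrc1, the mannose receptor, fell by 3.38 ± 0.36.

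The complement chains C1qa, C1qb and C1qc, which macrophages secrete, fell, with log2 fold changes of -3.28 ± 0.30, -3.37 ± 0.41 and -3.55 ± 0.37. C1qb gave 21294, 22155 and 20281 in syngeneic and 3029, 869 and 2984 in WT cells. Fcna, a ficolin, fell by 3.08 ± 0.40, from 28018 to 28822 in syngeneic to 1504 to 4837 in WT cells. In each of these genes WT replicate 2 was lower than the other WT arrays by more than the spread between them.

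In iron handling, Slc40a1, the iron exporter ferroportin, gave 26521, 23643 and 25297 in syngeneic and 6844, 2782 and 6781 in WT cells. Hmox1, which breaks down haem, gave 4975, 4860 and 5050 in syngeneic and 834, 185 and 794 in WT cells. Both fell without overlap, with log2 fold changes of -2.30 ± 0.32 and -3.12 ± 0.45 (limma adjusted p = 0.00321 and 0.00383). Trf, or transferrin, fell by 3.31 ± 0.28. The ferritin chains Ftl1 and Fth1 differed by -0.89 ± 0.29 and -0.12 ± 0.07 and were not called. Slc11a1, a phagosomal metal transporter that neutrophils express too, differed by -2.19 ± 0.60 (adjusted p = 0.0548).

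Markers shared with other monocytes and macrophages fell in part. Of 12 tested 4 fell and 0 rose, with a median of -1.40; without WT replicate 2, 7 fell and 1 rose (median -0.64), and 2 fell without any 1 syngeneic array. Csf1r, the receptor for macrophage colony-stimulating factor, gave 1246, 1257 and 1235 in syngeneic and 396, 77.9 and 409 in WT cells. Adgre1, or F4/80, gave 567, 572 and 619 in syngeneic and 183, 21.7 and 172 in WT cells. Both were lowest on WT replicate 2, and both calls ended without any 1 syngeneic array (adjusted p = 0.0676 to 0.0695 and 0.0581 to 0.0638). Ms4a7 fell by 3.26 ± 0.21, and Treml4, a receptor of spleen macrophages and monocytes, fell by 2.58 ± 0.36. Ccr2, the chemokine receptor of inflammatory monocytes, gave 1058, 1113 and 1062 in syngeneic and 1352, 228 and 1397 in WT cells, and overlapped. Lyz2 differed by -0.44 ± 0.40.

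Other large falls included secreted and lipid-handling proteins. Apoe, an apolipoprotein made by macrophages, gave 3314, 3196 and 3322 in syngeneic and 319, 134 and 265 in WT cells. Igf1, a growth factor, fell by 3.45 ± 0.38, and its second passing probe differed by -3.98. Ptgis, the prostacyclin synthase, gave 943, 1032 and 908 in syngeneic cells and exceeded the limit on 1 of 3 WT arrays; it fell by 3.69 ± 0.09 (limma adjusted p = 5.43e-07). Plpp3, a lipid phosphatase, Slco2b1, an organic anion transporter, and Dmpk, a kinase, fell, with log2 fold changes of -3.72 ± 0.26, -3.34 ± 0.19 and -3.30 ± 0.14. Pparg, the nuclear receptor that drives lipid uptake genes, gave 1577, 1642 and 1714 in syngeneic and 319, 92.5 and 281 in WT cells. Of 12 PPAR and lipid droplet genes 5 fell and 1 rose (8 and 2 without WT replicate 2, and 2, 3 and 2 fell without syngeneic replicates 1, 2 and 3).

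**Figure D2:**
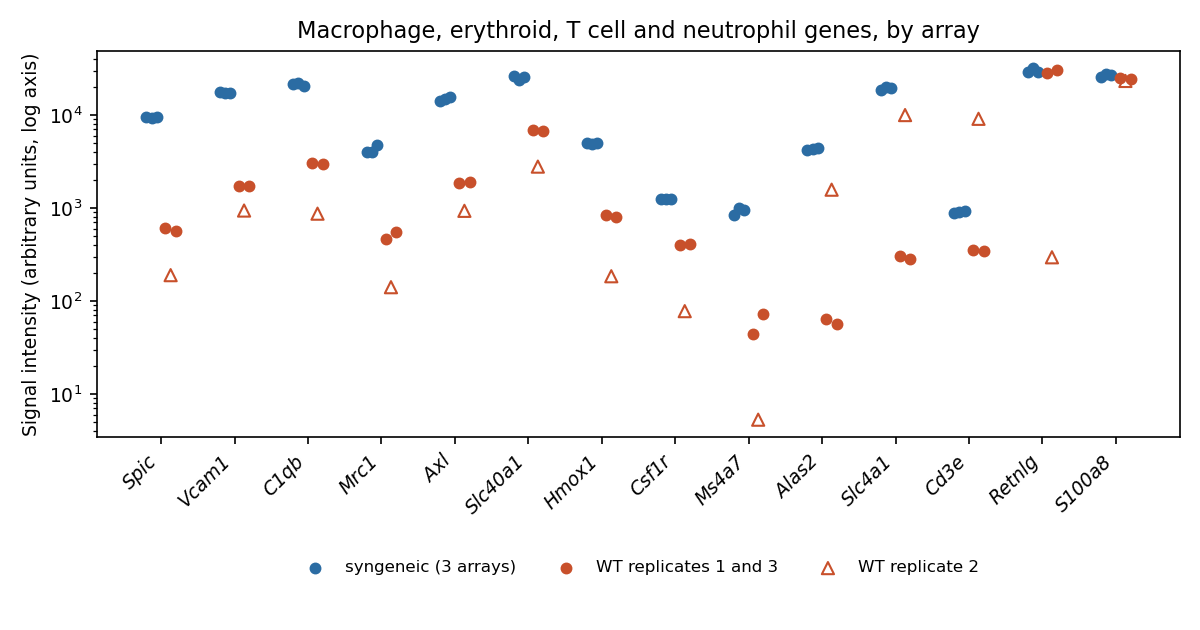
Signal intensity (log axis, arbitrary units) of macrophage (Spic to Ms4a7), erythroid (Alas2, Slc4a1), T cell (Cd3e) and neutrophil (Retnlg, S100a8) genes on each syngeneic array (blue), WT replicates 1 and 3 (filled red) and WT replicate 2 (open triangles). Macrophage genes are lower on all 3 WT arrays, while WT replicate 2 lies far from the other WT arrays for Alas2, Slc4a1, Cd3e and Retnlg.

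Erythroid genes were far lower on WT replicates 1 and 3 than on the syngeneic arrays, while WT replicate 2 lay closer to the syngeneic level or above it. All 3 WT arrays were below all syngeneic arrays in 7 of 13 genes, against 16.6% of all genes. The summed signal of the 13 tested genes was 150001 to 152083 on syngeneic arrays and 28571, 140107 and 27980 on WT arrays 1, 2 and 3. With all arrays 2 of 13 fell, and 13 of 13 without WT replicate 2 (medians -1.40 and -2.35). Alas2, the first enzyme of haem synthesis in red cell precursors, gave 4192, 4265 and 4375 in syngeneic and 63.6, 1572 and 56.0 in WT cells. Slc4a1, the band 3 anion exchanger of red cells, gave 18399, 19773 and 19395 in syngeneic and 305, 9962 and 284 in WT cells, and was not called with all arrays (-4.14 ± 1.17, adjusted p = 0.0613). The 2 called genes, Alas2 and Fech, lost their calls without WT replicate 1 or 3 or any 1 syngeneic array, and Alas2 also without knockout replicate 2 or 3 (adjusted p = 0.0524 to 0.102 over both). Trim10, an erythroid ubiquitin ligase, fell by 3.62 ± 0.75, a call that ended without WT replicate 1 or any 1 syngeneic array (adjusted p = 0.0586 to 0.078). The haemoglobin gene Hbb-bs gave the highest signal of the array, 47219, on all 3 syngeneic arrays, the top of the scale, and 11187, 44000 and 11437 in WT cells; globin genes are near-identical copies.

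Lymphocyte genes showed the same split. The summed signal of 13 T cell genes was 10412 to 10931 on syngeneic arrays and 7315, 51756 and 7519 on WT arrays. A large part of it on all but WT replicate 2 came from Cd8b1, at 4434 to 4778 in syngeneic and 5298 to 5865 in WT cells. The other passing probes of Cd8b1 differed by -0.85 and -0.42, against 0.26 for the probe used. With all arrays 0 of 13 changed, and 9 fell without WT replicate 2 (medians 0.26 and -0.90). Cd8a and Cd5, also T cell markers, did not pass the filter on dim probes. Cd3e, a chain of the T cell receptor complex, gave 875, 913 and 939 in syngeneic and 350, 9082 and 347 in WT cells. Cd79b, of the B cell receptor, gave 991, 911 and 1022 in syngeneic and 381, 1514 and 376 in WT cells. In both, WT replicates 1 and 3 were below and WT replicate 2 above all syngeneic arrays. Of 5 B cell genes 0 changed with all arrays and 4 fell without WT replicate 2.

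Ifng, the gene of interferon-gamma itself, gave 38.5, 31.3 and 46.9 in syngeneic and 139, 1946 and 148 in WT cells. The groups did not overlap, yet Ifng was not called with all arrays (2.08 ± 0.88, adjusted p = 0.17) or without WT replicate 2 (1.00, adjusted p = 0.0943). Gzmk, a granzyme of T and NK cells, gave 81.0, 73.7 and 99.0 in syngeneic and 182, 3322 and 169 in WT cells, also without overlap and not called. Of 13 NK and cytotoxic genes 0 changed with all arrays, and 4 fell and 0 rose without WT replicate 2. The part of the lymphocyte genes in the other results was not tested. Leaving out WT replicate 2 cannot decide that part, because Ifng and Gzmk gave signal on the other WT arrays too. Gbp2, Tap1 and H2-Ab1 rose by 2.05, 1.33 and 0.76 without WT replicate 2.

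Among granulocyte genes other than those of neutrophils, Fcer1a, the IgE receptor alpha chain of basophils and mast cells, gave 154, 135 and 133 in syngeneic and 438, 5412 and 392 in WT cells. Prss34, a basophil protease, gave 944, 970 and 1024 in syngeneic and 1764, 27458 and 1777 in WT cells. Both were above the syngeneic range on all WT arrays and highest by far on WT replicate 2; neither was called with all arrays, and both were called without it (1.22 and 0.81, adjusted p = 1.33e-05 and 0.00013). Ccr3, the eotaxin receptor of eosinophils, fell by 2.10 ± 0.13, from 359, 332 and 328 to 34.9, 12.4 and 38.4. Of the 10 genes in this list 1 fell and 0 rose, and 5 rose and 3 fell without WT replicate 2. Over all genes 5.67% fell and 4.83% rose (15% and 14.6% without that array).

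**Figure D3:**
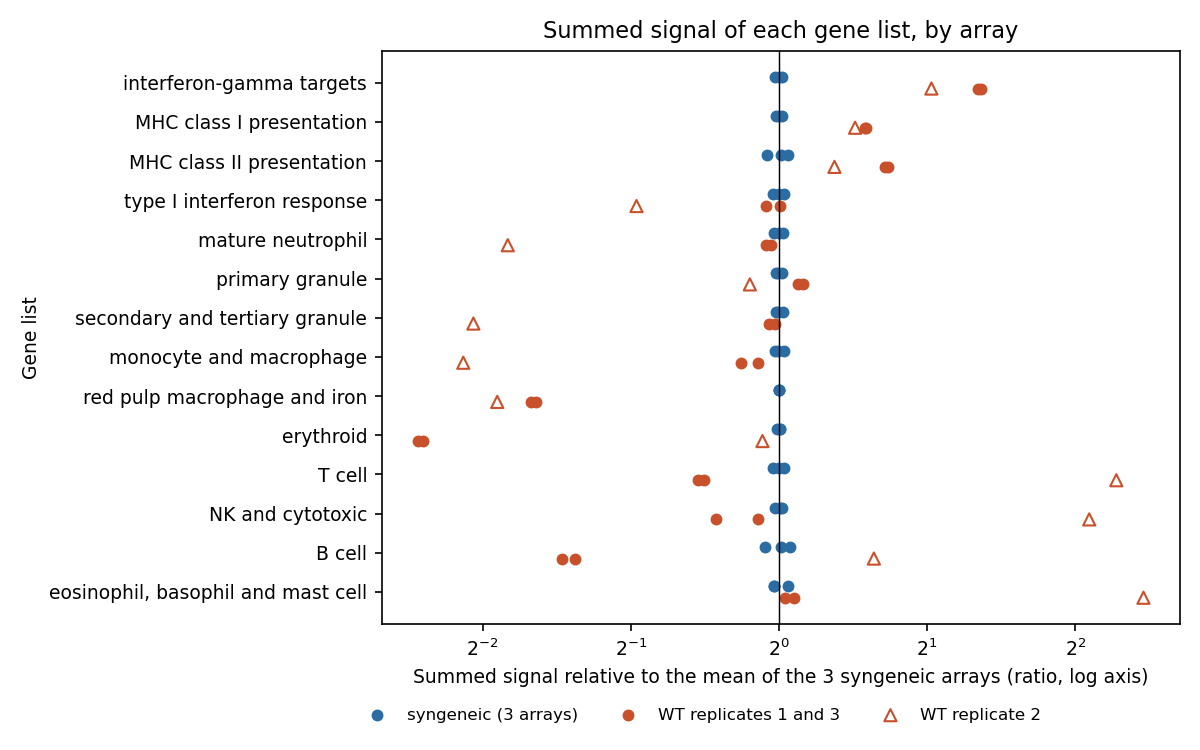
Summed signal of the tested genes of 14 lists on each array, as a ratio to the mean of the 3 syngeneic arrays (log axis), with syngeneic arrays in blue, WT replicates 1 and 3 in filled red and WT replicate 2 as open triangles. All 3 WT arrays lie above 1 for interferon-gamma targets and both MHC lists and near 0.3 for red pulp macrophage genes, while WT replicate 2 lies at 4.85 for T cell and 0.281 for mature neutrophil genes.

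Neutrophil genes on WT replicates 1 and 3 summed to 0.962 and 0.940 of the syngeneic mean. The summed signal of 19 mature neutrophil genes was 173291 to 180540 on syngeneic and 170208, 49772 and 166382 on WT arrays. Of the 19, 0 changed with all arrays (0 at an unadjusted p under 0.05) and the median was -1.08. WT replicate 2 lay below the other WT arrays in 18 of them. Without it 2 rose and 6 fell, with a median of -0.20.

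Retnlg, a resistin-like protein of neutrophils, gave 28712, 31679 and 28712 in syngeneic and 28562, 295 and 30316 in WT cells. Mmp9, a matrix protease of tertiary granules, gave 8614, 8614 and 9135 in syngeneic and 5695, 33.0 and 6403 in WT cells. Cxcr2, which guides neutrophils out of the marrow, gave 1566, 1611 and 1325 in syngeneic and 1148, 32.8 and 1075 in WT cells. All 3 genes were far lower on WT replicate 2 than on any other array, and without it Mmp9 and Cxcr2 fell, with log2 fold changes of -0.54 and -0.41 (adjusted p = 0.00477 and 0.011). Cxcr4, which holds neutrophils in the marrow, then rose by 0.81 (adjusted p = 0.00122). Il1b, the cytokine, gave 3738, 3911 and 4046 in syngeneic and 3329, 104 and 3162 in WT cells.

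Granule genes appear in the order in which neutrophils mature, from primary to tertiary granules. Of 12 primary granule genes 0 changed with all arrays (2 at an unadjusted p under 0.05) and 2 rose without WT replicate 2. Elane, or neutrophil elastase, gave 22057, 23361 and 22906 in syngeneic and 29033, 29464 and 31959 in WT cells, which is apart but was not called (0.40 ± 0.14, adjusted p = 0.102). Of 16 secondary and tertiary granule genes 0 changed (1 at an unadjusted p under 0.05), with a median of -0.71 that was -0.05 without WT replicate 2, when 1 rose and 2 fell. Ltf, or lactoferrin, gave 35445, 33638 and 33246 in syngeneic and 34437, 8741 and 32799 in WT cells, level but for WT replicate 2. Of 7 NADPH oxidase genes 0 changed (2 at an unadjusted p under 0.05), and 2 rose and 1 fell without WT replicate 2.

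**Figure D4:**
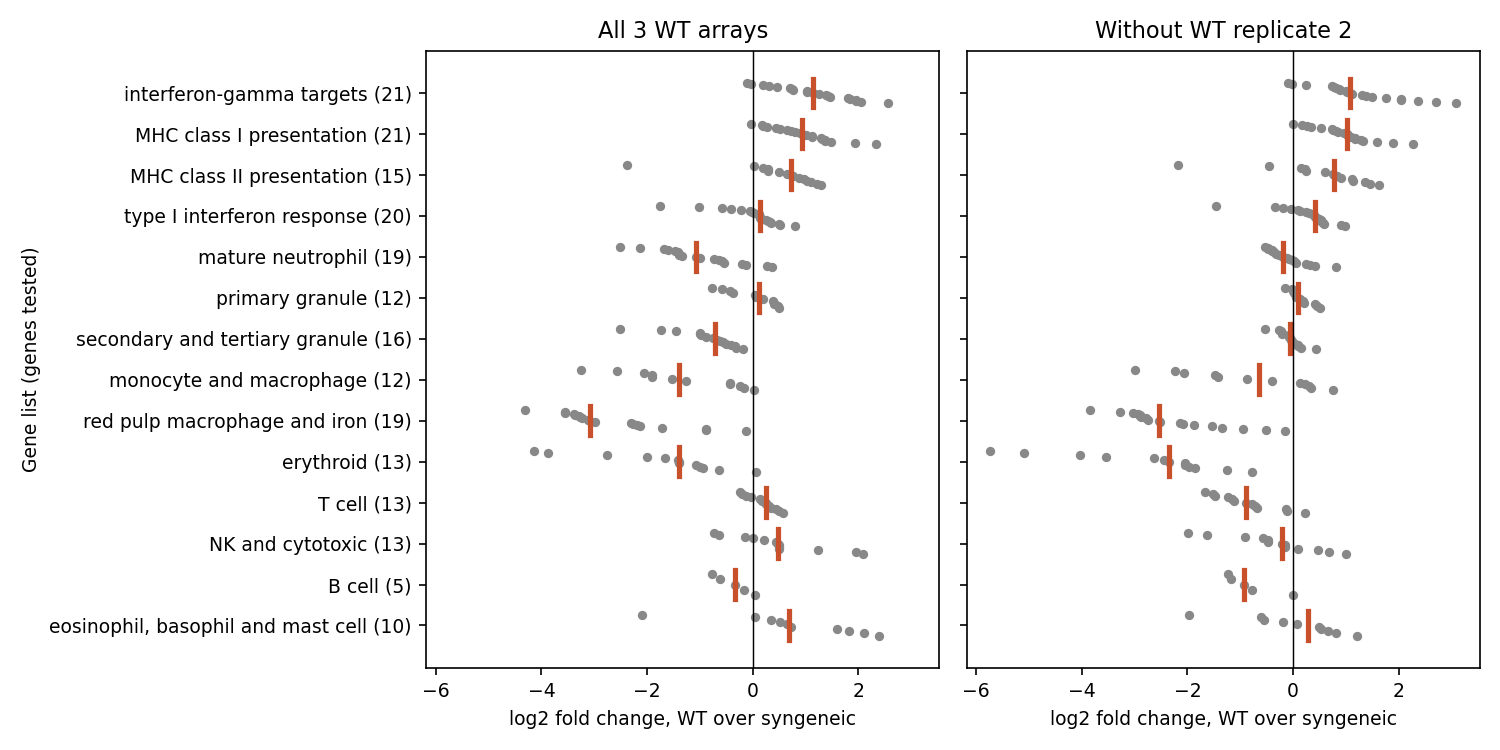
log2 fold changes (WT over syngeneic) of the tested genes of 14 lists, each point 1 gene and each red bar the list's median, with all 3 WT arrays (left) and without WT replicate 2 (right). The medians of interferon-gamma targets (1.15 and 1.08) and red pulp macrophage genes (-3.08 and -2.54) are on the same side in both panels, while that of T cell genes goes from 0.26 to -0.90.

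Several other inflammatory genes changed. Ccl3, a chemokine that draws monocytes and T cells, gave 186, 247 and 208 in syngeneic and 1075, 3567 and 1018 in WT cells, highest on WT replicate 2. It rose by 2.56 ± 0.52, a call that ended without any 1 syngeneic array (adjusted p = 0.0628 to 0.0762). Il1a gave 182, 177 and 204 in syngeneic and 48.2, 10.2 and 37.3 in WT cells, and fell by 1.38 ± 0.17. Il12rb1, a chain of the receptor for interleukin-12, gave 27.2, 26.6 and 27.6 in syngeneic and 276, 443 and 269 in WT cells. It rose by 2.05 ± 0.17 (limma adjusted p = 0.000193), and its second passing probe differed by 1.67. Serpina3f, a protease inhibitor, gave 788, 853 and 708 in syngeneic and 3773, 3288 and 3999 in WT cells. Of 14 NF-kB cytokine genes 1 rose and 1 fell (4 and 3 without WT replicate 2).

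Other large rises concerned transport and protein turnover. Slc4a8, a bicarbonate transporter, rose by 2.11 ± 0.16, and Psmb1, a subunit of the constitutive proteasome, gave 2008, 2112 and 1991 in syngeneic and 10117, 5473 and 10672 in WT cells. Ifi205, an interferon-inducible protein, rose by 1.91 ± 0.36 on its brightest probe, while its 2 other passing probes differed by 0.53 and 0.01. Its call ended without syngeneic replicate 2 or 3 (adjusted p = 0.0535 and 0.063). The early growth response gene Egr1, a transcription factor induced within minutes of stimulation, rose by 1.43 ± 0.21, from 97.2, 98.6 and 110 to 333, 434 and 397. It was 1 of 16 immediate early and heat shock genes called (5 without WT replicate 2). Over all genes 10.5% were called, and 29.6% without that array.

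In tryptophan metabolism, on which IDO1 acts, Wars, the tryptophan tRNA ligase, gave 558, 617 and 616 in syngeneic and 1374, 1706 and 1348 in WT cells. Kyat3, a kynurenine aminotransferase, gave 192, 186 and 192 in syngeneic and 345, 319 and 391 in WT cells. Both rose without overlap, by 1.21 ± 0.10 and 0.70 ± 0.11, as 2 of 8 tested (3 rose and 1 fell without WT replicate 2). Kynu, or kynureninase, gave 16.3, 20.7 and 17.4 in syngeneic and 59.7, 25.7 and 62.2 in WT cells. It differed by 0.44 ± 0.13 (adjusted p = 0.0742) and was called without WT replicate 2.

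Genes of protein folding in the endoplasmic reticulum were higher in part, with 5 of 13 rising and 0 falling (median 0.11; 6 without WT replicate 2, and 3 without any 1 syngeneic array). Sdf2l1, a chaperone partner, gave 3759, 3565 and 3526 in syngeneic and 8076, 6277 and 7254 in WT cells. Creld2, Pdia6 and Pdia4 rose by 0.68 ± 0.10, 0.66 ± 0.10 and 0.58 ± 0.13, and Calr, a lectin chaperone that also loads class I molecules, by 1.32 ± 0.24. The call of Calr ended without any 1 syngeneic array (adjusted p = 0.0522 to 0.0566). The stress factor Ddit3, or CHOP, gave 930, 1061 and 969 in syngeneic and 706, 687 and 702 in WT cells and was not called (-0.46 ± 0.13). Psat1 and Phgdh, enzymes of serine synthesis, rose by 0.95 ± 0.20 and 0.93 ± 0.22 as 2 of 15 amino acid starvation genes (3 rose and 4 fell without WT replicate 2). Both calls ended without any 1 syngeneic array, and that of Phgdh also without any 1 knockout array (adjusted p = 0.0505 to 0.11 over both).

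In energy metabolism, 5 of 18 oxidative phosphorylation genes rose and 0 fell (median 0.22; 6 rose without WT replicate 2, and 1, 1 and 2 without syngeneic replicates 1, 2 and 3). Cycs, or cytochrome c, gave 3363, 3406 and 3493 in syngeneic and 5988, 4970 and 5316 in WT cells. In glycolysis Pfkp and Tpi1 rose, by 0.69 ± 0.12 and 0.35 ± 0.08, as 2 of 16 (4 rose and 1 fell without WT replicate 2). Over all genes tested 4.83% rose and 5.67% fell (14.6% and 15% without that array). The call of Tpi1 ended without 6 arrays, each left out in turn (adjusted p = 0.0503 to 0.132), and that of Pfkp without syngeneic replicate 2 (adjusted p = 0.0525). Among cell division genes Gins2, of the replication helicase, rose as 1 of 19 S phase genes, and Cdc20 and Aurkb rose as 2 of 11 G2 and M phase genes. Their sizes were 0.54 ± 0.11, 0.37 ± 0.08 and 0.43 ± 0.11. Without WT replicate 2, 3 S phase and 4 G2 and M phase genes rose. The calls of Cdc20 and Aurkb ended without any 1 syngeneic array or WT replicate 3, and that of Aurkb also without WT replicate 1 or knockout replicate 2 or 3 (adjusted p = 0.0545 to 0.167 over both). The call of Gins2 ended without WT replicate 3 or syngeneic replicate 1 or 2 (adjusted p = 0.0565 to 0.0934).

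Receptors for microbial products were lower in part. Tlr5, which senses flagellin, gave 210, 173 and 179 in syngeneic and 58.2, -6.46 and 58.1 in WT cells. Tlr7, which senses single-stranded RNA, gave 679, 655 and 757 in syngeneic and 274, 90.3 and 294 in WT cells. These 2 of 14 fell, WT replicate 2 was lowest in both, and both calls ended without any 1 syngeneic array; 7 fell without WT replicate 2. Glucocorticoid-induced genes did not share one direction: Klf9, Fkbp5 and Per1 rose, by 0.49 ± 0.10, 0.47 ± 0.11 and 0.36 ± 0.09, and Cd163 and Sgk1 fell. Of the 12 tested, 5 rose and 5 fell without WT replicate 2, and 1, 0 and 0 rose without syngeneic replicates 1, 2 and 3. The calls of Klf9 and Sgk1 ended without syngeneic replicate 2 or 3, and that of Fkbp5 without 6 arrays, each left out in turn (adjusted p = 0.0545 to 0.114 over these genes). Pim1 and Myc rose as 2 of 18 IL-6 and STAT3 genes (0.77 ± 0.17 and 1.06 ± 0.27), and 9 rose and 1 fell without WT replicate 2. Both calls ended without WT replicate 1 or any 1 syngeneic array, and also without WT replicate 3 for Pim1 and any 1 knockout array for Myc (adjusted p = 0.0575 to 0.146 over both).

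Of the markers of suppressor function, by which myeloid cells restrain T cells, 1 was called. Of 16 tested 0 rose and 1 fell, Cd84 (-0.84 ± 0.22, adjusted p = 0.0457), and this call ended without 7 arrays, each left out in turn (adjusted p = 0.0605 to 0.149). Arg2, an arginase, gave 145, 200 and 201 in syngeneic and 90.6, -2.67 and 155 in WT cells, and overlapped. Tgfb1 differed by -0.25 ± 0.09. Without WT replicate 2, 1 of the 16 rose and 2 fell.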

How the data were processed

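The deposited table gives a signal intensity for each of 45281 probes on each of 9 Illumina arrays, made with GenomeStudio, per the submitters' processing notes, in a version that the sources used here do not state. The authors' intensity values were background-subtracted and quantile-normalized before deposit, as the values show: the upper quartile was 102 on each array, and 35.6% of signals were at or below 0. The deposited log2 values, an alternative here, equal log2 of the intensities to within 1.09e-06. Another 9 columns of detection p-values share a name that does not tie them to arrays and were not used.

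Probes were named through the platform annotation (34885 with 1 gene, 18 with several, 10378 with none). A probe was kept if above 14.3, the 95th percentile of 1617 probes for sensory receptors and keratin-associated proteins, on at least 3 of 9 arrays; 19155 to 19185 probes exceeded it per array. Signals then went through normexp with an offset of 50 and quantile normalization, and the passing probe with the highest mean over all 9 arrays stood for a gene. Fold changes are thus on an offset scale, where those of dim genes come out too small. limma 3.58.1 in R 4.3.3 fitted 1 mean per group over all 9 arrays, with Benjamini-Hochberg adjustment over 10871 genes and a threshold of 0.05. A called gene above the limit on no array of a group is given, where named, as "at least N-fold". On simulated data with 200 changed genes among 10871 the fit recovered 32.8%, 85.1% and 93.9% of changes of 0.5, 1 and 2 on the log2 scale, with 13 false calls. The simulation drew independent spread of equal size for every array, whereas in the data WT replicate 2 stood apart. It therefore does not show the recovery or the false calls of the real fit. The number of arrays limits the precision.

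Members and the 40 gene lists were chosen with earlier results of these data known. Named genes were the 15 largest rises and 15 largest falls among genes called with and without WT replicate 2 with separate groups (clone names and predicted genes left out), per list up to 4 members of smallest p, members of the cell type lists, Ido1, Xist, and the 5 genes highest and lowest in WT replicate 2. Further list members, pancreatic genes and Prm1 were picked with their values in view; for these, the calls without 1 array were followed only as counts per list. Alternatives changed the background correction, offset, normalization, table, filter, probe rule, arrays and weights, added a replicate block, and left out each array in turn.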

Additional observations from a re-analysis of the deposited data

How the results depend on the processing

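The 1141 calls (525 higher, 616 lower) became 701 (296, 405) with only the 6 arrays, 4459 (2377, 2082) with these but WT replicate 2, and 4368 (2358, 2010) with array weights, which gave that array a weight of 0.0414. A fold of at least 1 on the log2 scale left 332 (61, 271), and the deposited log2 values left 409 lower. Leaving out 1 array gave 487 to 3215 calls, 159 to 1588 higher and 328 to 1627 lower. With replicate number as a block the count was 720, 274 of them higher. Deviations of same-numbered WT and syngeneic arrays from their group means correlated at 0.00526, 0.0155 and 0.0121. WT replicate 2 dominates the WT deviations: the SD of log2 differences was 0.857 between WT replicates 1 and 2 and 0.147 between 1 and 3. These correlations therefore cannot show whether same-numbered arrays share a small effect. The other alternatives left the counts within 1.5 times. Of 94 named genes called, 52 kept call and direction in every setting tried, among them Cxcl9, Gbp2, Igtp, Tap1, H2-Ab1, Spic, Vcam1 and Cd86. Xist, which fell by 0.98, differed by 1.17 with the deposited log2 values (not called); its probes disagree. The cause was not tested. limma's neqc, which needs detection p-values tied to arrays, was not run. Dim genes are limited by the background: 59 called falls were above the limit on no WT array and 6 called rises on no syngeneic array.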

Other observations

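Genes of the exocrine pancreas, an organ next to the spleen, were chosen after the value of Amy2a5, a pancreatic amylase, was seen. Amy2a5 gave 1450, 1362 and 1305 in syngeneic and 114, 11.2 and 109 in WT cells. Of 25 such genes looked for, 21 were on the array and 14 passed the filter. WT arrays lay below all syngeneic arrays in 12 of the 14, against 16.6% of all genes. Cela2a, Cela3b, Try4, Try5, Pnliprp1, Cpb1, Clps, Reg1 and Rnase1 were above the background limit on no WT array. They passed the filter only through syngeneic or knockout arrays, and passing through syngeneic arrays favours WT values below them. The count therefore cannot be read as an excess over that share. By limma 3 fell (Amy2a5, Cela1 and Cela2a, the last at least 3.39-fold) and 0 rose, and 6 fell without WT replicate 2. Over all genes 5.67% fell, and 15% without that array. Several of the 14 were dim: Cela3b, Pnliprp1, Rnase1, Ctrb1, Cpb1, Clps and Try4 had syngeneic means of 14.5 to 29.4, near the limit of 14.3. The median was -0.49.

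Xist, a long RNA of the inactive X chromosome, gave 910, 713 and 902 in syngeneic and 347, 374 and 464 in WT cells on its brightest probe. Its other passing probes differed by 0.90 and -0.34, so the probes do not share a direction. The probe used for the Y-linked gene Eif2s3y was above the background limit on none of the 6 arrays, and its other passing probe gave 12.9 to 19.1 in WT and 10.2 to 21.3 in syngeneic cells.

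The genes highest in WT replicate 2 relative to WT replicates 1 and 3 were Aqp1, a water channel of red cells, Car1, a carbonic anhydrase of red cell precursors, Sphk1, Bex4 and Slc38a5. Car1 gave 727, 786 and 740 in syngeneic and 398, 14276 and 349 in WT cells. The lowest were Retnlg, Cstdc4, Mmp9, Asprv1 and Stfa1. Cstdc4, a stefin-like protease inhibitor, gave 6164, 5648 and 5844 in syngeneic and 5292, -0.994 and 5266 in WT cells. In all, WT replicate 2 lay at least 1 on the log2 scale above WT replicates 1 and 3 in 828 genes and below them in 852.

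Prm1, a protamine of sperm, was also singled out after its values were seen. Its probes were below the background limit on all 3 syngeneic arrays, and the brighter one gave 272, 41.1 and 270 on WT arrays 1, 2 and 3.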
